A study of Mus musculus with 6 samples.

Results

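Mouse embryonic fibroblasts without PER1 and PER2 were compared between a line that kept CRY1 and CRY2 but lacked NR1D1 and NR1D2 (Per/Nr1d_KO, 2 libraries) and a pair of libraries whose identity has 2 readings. The name under which the counts of that pair were deposited gives Cry/Per_KO, cells that kept NR1D1 and NR1D2, so by name the comparison sets PER-null cells with CRY against PER-null cells with NR1D. The genotype label of the same pair lists mutations in both Nr1d genes on top of those in the Cry and Per pairs (Cry/Per/Nr1d_KO), so by label the cells with CRY were set against cells that lacked all 3 protein families. Members were chosen by deposited name, which gave 4 of the 6 libraries of the series, and all 27179 genes of the counts were considered. The libraries labelled Cry/Per/Nr1d_KO are called the reference libraries here, and the pair labelled Cry/Per_KO, deposited under the name of the sextuple mutant, is called the remaining pair. By label, cells with NR1D are the remaining pair. Its values are given beside those of the core clock genes and of some lists and genes whose call or direction differed against it. The direction of a difference between 2 pairs does not depend on the reading, but what the reference cells lacked does.

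All cells were immortalized fibroblasts of the C57BL/6 strain, lacked PER1 and PER2, and were harvested at near confluence from medium with 10% serum without a synchronizing step. The Cry/Per/Nr1d_KO line was a clone picked after CRISPR/Cas9 mutation of Nr1d1 and Nr1d2 in Cry/Per_KO cells, whereas Per/Nr1d_KO was a separately made line. Each line was represented by 2 RNA preparations, so errors and p-values measure the spread between preparations of a line, and genotype and line history cannot be told apart. Library totals ranged from 53764390 to 85927236 counts, and values below are normalized counts, that is counts scaled to a common library size of 65881749. Libraries of a line had Pearson correlations of 0.9974 to 0.9979 across genes.

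The mammalian clock runs on a feedback loop in which CLOCK and BMAL1 (encoded by Arntl) bind E-boxes and activate Per, Cry, Nr1d, Dbp and other genes, and PER and CRY proteins return to repress them. NR1D1 and NR1D2 form a second arm, since they recruit the NCoR-HDAC3 corepressor to RORE sites and hold down Arntl, Npas2, Nfil3 and Cry1, while ROR receptors activate the same sites. In fibroblasts both arms act in each cell, and CRY can repress CLOCK-BMAL1 without PER. A gene was called when its adjusted p was below 0.05 (quasi-likelihood test of edgeR, Benjamini-Hochberg) and its log2 fold change lay beyond 0.807 in either direction. Of the 11934 genes that averaged 100 or more normalized counts across the 6 libraries, 20.7% were called, 11.3% as higher and 9.35% as lower in Per/Nr1d_KO.

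RNA of every mutated gene was present in all libraries, which does not tell the 2 readings apart. Arntl and Cry1, which NR1D holds down, had means of 1181 and 1711 normalized counts in the reference libraries. In the remaining pair their means were higher, at 2192 and 5401. Which reading holds was not tested. Cry2, which encodes a CRY repressor, had 6908 and 6476 normalized counts in the reference libraries, 1107 and 1169 in Per/Nr1d_KO, and 7783 and 7824 in the remaining pair. The groups did not overlap, and Cry2 was lower in Per/Nr1d_KO by a log2 fold change of -2.55 ± 0.055 (SE, n = 2 per group, edgeR adjusted p = 1.8e-15). Cry1 hardly differed, with 1698 and 1724 against 1535 and 1592 (log2 fold change -0.13 ± 0.055), while the remaining pair held 5323 and 5478. Against that pair Cry1 was called lower in Per/Nr1d_KO (log2 fold change -1.79). Per2 was lower (4866 and 4999 against 1004 and 1089, log2 fold change -2.23), with 6633 and 6838 in the remaining pair. Per3, a PER paralog that was not mutated in these lines, was lower as well (2930 and 2950 against 1062 and 1038, log2 fold change -1.49), with 6395 and 6810 in the remaining pair. Per1 lay inside the limit on the fold, at 3066 and 3062 against 2379 and 2106, but the remaining pair had 5644 and 5793, against which it was called lower (log2 fold change -1.36). Nr1d1 had 3158 and 3146 normalized counts in the reference libraries against 5359 and 4838 in Per/Nr1d_KO (log2 fold change 0.69 ± 0.053), also inside the limit, and Nr1d2 had 4881 and 5506 against 5558 and 5717, with 8262 and 8008 in the remaining pair. The remaining pair had more Nr1d1 RNA than either, 9337 and 9249, and against that pair Nr1d1 was lower in Per/Nr1d_KO (log2 fold change -0.87).

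Of the 4 activator genes of the loop, Npas2 and Arntl were higher, and Clock and Arntl2 were not called. Npas2, a CLOCK paralog, had 49.7 and 41.1 normalized counts in the reference libraries and 312 and 260 in Per/Nr1d_KO, a log2 fold change of 2.62 ± 0.16 (edgeR adjusted p = 9.4e-10). Arntl had 1191 and 1171 against 2493 and 2455 (log2 fold change 1.07 ± 0.058). The remaining pair was near Per/Nr1d_KO in Arntl (2176 and 2208, log2 fold change 0.17) but not in Npas2 (64.6 and 67.8, log2 fold change 2.09). Against the remaining pair Arntl was not called and Npas2 was. Clock and Arntl2 had log2 fold changes of -0.40 and 0.47, and in the remaining pair Clock had 11977 and 11613 normalized counts and Arntl2 had 698 and 690. The receptor gene Rora was higher, with 110 and 121 against 257 and 270 normalized counts, but not against the remaining pair (290 and 303). Rorb had too few counts for the test, with 104 and 108 against 8.87 and 12.6, and 76.8 and 73.6 in the remaining pair.

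All 4 genes of the D-box arm were called. Dbp, an activator of D-box genes and a common readout of CLOCK-BMAL1 activity, had 692 and 731 normalized counts in the reference libraries, 175 and 140 in Per/Nr1d_KO and 1675 and 1760 in the remaining pair. Its log2 fold change was -2.20 ± 0.11, and 18% of its exon bases are overlapped on the other strand by Sphk2. Hlf fell from 807 and 957 to 63.4 and 49.7 (log2 fold change -3.99 ± 0.14), with 1052 and 1013 in the remaining pair. Tef had 13727 and 12876 against 6913 and 7365 (log2 fold change -0.90), with 13182 and 13875 in the remaining pair, and its call was lost when the test itself was set against the limit on the fold (glmTreat of edgeR, adjusted p = 0.072). Nfil3, the repressor that competes for D-boxes and an NR1D target, was the member that was higher, with 2245 and 2164 against 4559 and 4456 (log2 fold change 1.03). The remaining pair had 3183 and 3401, and against it Nfil3 was not called (0.45). The E-box repressors were all lower. Bhlhe41 (DEC2) had 551 and 583 normalized counts against 22.8 and 24.5 (log2 fold change -4.56 ± 0.14), Bhlhe40 (DEC1) 5015 and 5170 against 2318 and 2138 (log2 fold change -1.20), and Ciart (CHRONO) 2229 and 2062 against 425 and 418 (log2 fold change -2.35 ± 0.075). In the remaining pair Bhlhe41 had 738 and 725, Bhlhe40 8451 and 8384, and Ciart 1456 and 1557, all above Per/Nr1d_KO.

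**Figure D1:**
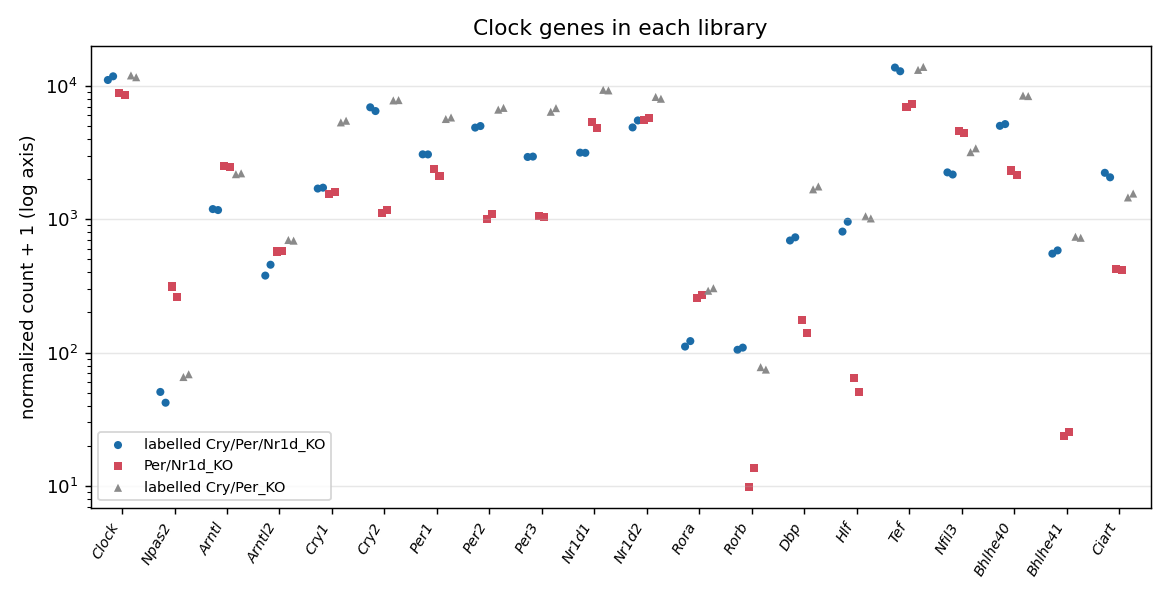
Normalized counts plus 1 (log axis) of 20 clock genes in each of the 6 libraries; blue circles are the libraries labelled Cry/Per/Nr1d_KO and deposited under the name Cry/Per_KO, red squares are Per/Nr1d_KO, grey triangles are the libraries labelled Cry/Per_KO. The red squares lie below both other pairs for Cry2, Per2, Per3, Dbp, Hlf, Bhlhe41 and Ciart and above both for Npas2 and Nfil3.

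Among 20 tested clock-controlled output genes, 8 were lower and 2 were higher, beside 9.35% lower and 11.3% higher over all genes tested. Their median log2 fold change was -0.29 against 0.01 over all genes tested. Lonrf3, a RING finger gene, showed the widest gap, from 1820 and 1819 to 74.8 and 82.1 normalized counts (log2 fold change -4.52 ± 0.088). The other lower genes were Pdk4, the kinase that restrains pyruvate dehydrogenase (-2.63), Dtx4 (-1.77), Usp2, a deubiquitinase (424 and 462 against 152 and 141), the glucocorticoid targets Tsc22d3 (-1.56) and Fkbp5 (-1.38), the CDK1 kinase Wee1 (-0.87) and Zfp367 (-0.81). Zfp367 stood at the limit, and its log2 fold change ranged from -0.85 to -0.77 when each library was left out in turn, with the call lost without Cry/Per/Nr1d_KO replicate 2 and without Per/Nr1d_KO replicate 2. Cdkn1a (p21) and Noct, a circadian NADP(H) phosphatase, were higher by log2 fold changes of 2.21 and 0.92. The calls of Wee1 and Noct were lost with chromosome medians subtracted (-0.77 and 0.68) and against the remaining pair (-0.63 and 0.60), and that of Wee1 also with glmTreat of edgeR (adjusted p = 0.17). Against the remaining pair 7 of the 20 were lower and 2 higher, among them Lonrf3 (-5.42), Pdk4 (-3.29), Dtx4 (-1.77) and Usp2 (-0.96) lower and Cdkn1a (1.96) higher. Nampt, Por, Klf9, Klf10, Pfkfb3, Tspan4, Slc16a1, Leo1, Clpx and Hes6 stayed inside the limit on the fold, between -0.48 for Clpx and 0.58 for Slc16a1 and Hes6. Slc16a1 gained a call against the remaining pair. Of 14 kinases and ubiquitin ligase genes that act on clock proteins, Fbxl21, a CRY ligase gene, was higher (log2 fold change 1.39, against -0.95 with the remaining pair as reference) and Usp2 was lower. Csnk1d and Csnk1e, the main kinases of PER, had log2 fold changes of 0.09 and -0.01. Csnk1a1 had -0.71, and the ligase genes Btrc and Fbxw11 had 0.42 and 0.32, all inside the limit. Csnk1a1 gained a call against the remaining pair, where 3 of the 14 genes were lower and none higher. None of the 7 NCoR-HDAC3 subunit genes was called against either pair. Ncor1 had a log2 fold change of -0.36, and Hdac3 itself was level (10130 and 9901 against 10108 and 10204). Ppp1r3c, an output gene too low to be tested, had 93.8 and 103 normalized counts in Per/Nr1d_KO against 24 and 20.

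The start sites of these genes were read for the letters CACGTG, the full E-box, in RefSeq promoter windows of GRCm38.p6 that run from 250 bases before to 50 bases after a start. A window was found for 27 of the 32 tested members of the PER and CRY, D-box, DEC and CHRONO, and output lists, and 10 held CACGTG. Of those 10, 5 were lower in Per/Nr1d_KO (Ciart, Bhlhe41, Tef, Lonrf3, Fkbp5) and 5 were not called (Cry1, Per1, Tspan4, Pfkfb3, Slc16a1). Of the 17 without it, 8 were lower, 3 higher and 6 not called. Over all genes, 9.70% of 1010 higher genes with a window, 99 of 822 lower genes and 12.1% of all 9352 tested genes held CACGTG. The stretches around CACGTG (in capitals, read 5′ to 3′ on the strand of the gene) are given for 4 lower genes and for Cry1 and Per1, which were not called. They lie at chr3:95882237-95882374 (Ciart, minus strand), chr6:145865538-145865603 (Bhlhe41, minus strand), chr15:81802516-81802581 (the first Tef start, plus strand), chrX:36328334-36328399 (Lonrf3, plus strand), chr10:85185079-85185144 (Cry1, minus strand) and chr11:69098753-69098818 (Per1, plus strand).
Ciart: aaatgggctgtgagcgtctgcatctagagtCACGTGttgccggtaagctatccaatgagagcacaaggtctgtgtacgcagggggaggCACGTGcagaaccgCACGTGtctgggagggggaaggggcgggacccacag
Bhlhe41: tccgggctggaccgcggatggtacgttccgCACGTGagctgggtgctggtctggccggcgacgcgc
Tef: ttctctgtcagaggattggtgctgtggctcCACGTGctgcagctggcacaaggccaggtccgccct
Lonrf3: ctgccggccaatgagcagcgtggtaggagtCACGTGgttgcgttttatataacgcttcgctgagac
Cry1: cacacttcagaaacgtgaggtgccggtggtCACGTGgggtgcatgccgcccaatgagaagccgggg
Per1: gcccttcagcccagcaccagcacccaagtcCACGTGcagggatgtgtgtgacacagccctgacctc

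Ciart carried 3 copies within its window, the first of them 116 bases and the last 44 bases before the start, and the other 5 windows carried 1 each. CACGTG at 60 bases before the start of Cry1 went with a log2 fold change of -0.13, and CACGTG at 153 bases before the start of Bhlhe41 went with -4.56. The RORE core TAGGTCA was held by the windows of 2.21% of tested genes, 2.18% of higher and 2.07% of lower genes, and among the clock lists by those of Arntl, Nfil3, Leo1 and the NR1D targets Gjb2 and Fabp7. For the D-box TTATGTAA the shares were 0.545%, 0.495% and 0.730%, and among the clock genes Per3 held it. The RORE core is shown in capitals at chr7:113207531-113207557 (Arntl, plus strand, starting 30 bases after the start) and at chr13:52981040-52981081 (Nfil3, minus strand, 12 bases before the start and on the opposite strand).
Arntl: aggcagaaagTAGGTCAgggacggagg
Nfil3: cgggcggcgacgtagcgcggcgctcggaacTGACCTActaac

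Of 20 genes listed as NR1D targets, 13 were tested, 8 were higher and 1 was lower, with a median log2 fold change of 1.07. Over all genes tested, 11.3% were higher and 9.35% lower. Npas2, Gjb2, Il6 and Mmp9 had means of at most 101 normalized counts in both other pairs. They passed the filter on the mean through their level in Per/Nr1d_KO, so the count of higher genes describes the genes that passed. Besides Arntl, Npas2 and Nfil3 the higher genes included Gjb2, which encodes connexin 26 (100 and 101 against 2653 and 2640, log2 fold change 4.71), Il6 (4.27), the monocyte attractant Ccl2 (3.20) and Mmp9 (1.36). The fatty acid elongase Elovl5 was lower (-1.05). Clock, Cry1, Insig2 and Bclaf1 were not called, and 7 more targets were too low to be tested. Against the remaining pair 6 of the 13 were higher, 2 lower and 5 not called, with a median of 0.45, beside 29.0% called of all genes tested. Arntl (0.17) and Nfil3 (0.45) lost their calls there, Cry1 was lower (-1.79), and Insig2 (-0.23) and Bclaf1 (0.34) stayed uncalled with the opposite sign. Among these, the fatty acid binding protein gene Fabp7 had 6.21 and 3.33 against 64.6 and 63.1, and the lipoprotein lipase gene Lpl 41.7 and 36.6 against 0 and 1.58.

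In the whole comparison 2468 genes were called, 1352 higher and 1116 lower in Per/Nr1d_KO. Without a limit on the fold, 9042 genes (75.8%) had an adjusted p below 0.05 by the same edgeR test, and for 10395 (87.1%) the 2 groups did not overlap, so separate groups were common to most genes and the size of each difference is given. Beyond 4-fold there were 476 higher and 429 lower genes, and beyond 32-fold 110 higher and 150 lower. For 4 higher genes both reference libraries held 0 counts, and for 20 lower genes both Per/Nr1d_KO libraries did. Against the remaining pair as reference, 3457 genes (29.0%) were called. That comparison uses the same Per/Nr1d_KO libraries.

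**Figure D2:**
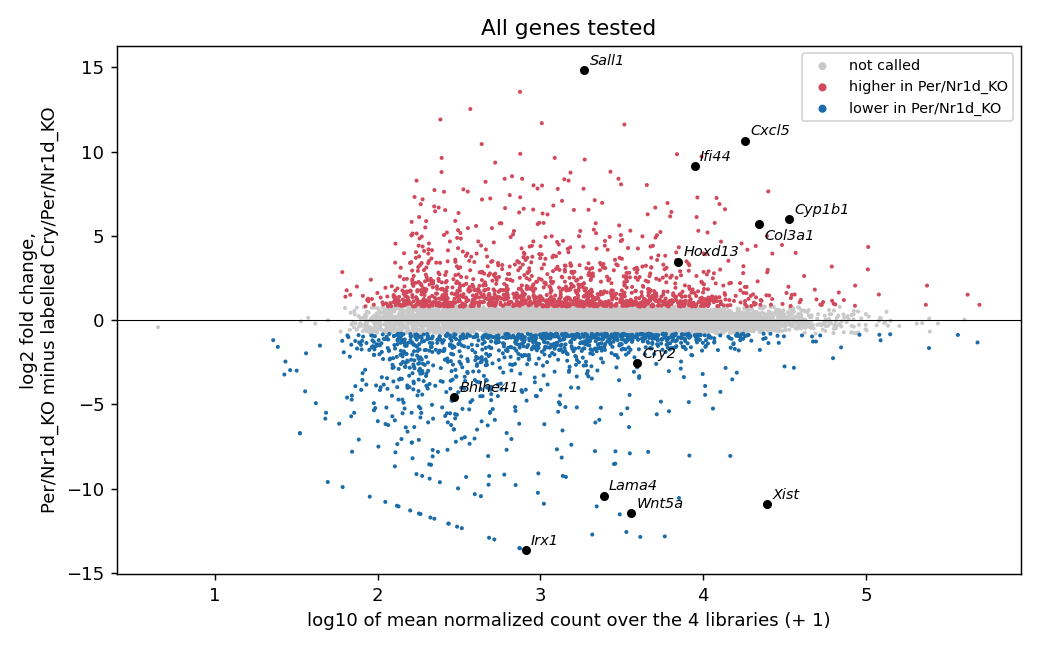
Log2 fold change of each of the 11934 genes tested (reference libraries subtracted from Per/Nr1d_KO) plotted over the log10 of its mean normalized count plus 1 over the 4 libraries; red points were called higher, blue points lower, and 12 named genes are in black. Values beyond about 11 in either direction belong to genes at or near 0 counts in one pair, where the fitted value depends on the prior count.

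The genes with the largest fitted differences were largely switched between present and near absent. Sall1, a zinc finger regulator of limb and kidney development, had 3866 and 3542 normalized counts in Per/Nr1d_KO and 0 in both reference libraries, at least 1236-fold higher against a floor of 3 counts per library. Vnn1, a pantetheinase, was at least 499-fold higher, 5730409E04Rik at least 247-fold and the potassium channel gene Kcnk5 at least 161-fold. Selp, which encodes P-selectin, had 2.66 and 1.11 against 6595 and 6504, and Lrrc32, which tethers latent TGF-beta, 9.77 and 21.1 against 14098 and 13448. Nmral1, Jph2 and the adipogenic regulator Pparg each had a single count in the reference pair, which gave ratios of 4141 (95% exact interval from the counts 743 to 163583), 993 (178 to 39241) and 1752 (314 to 69256), intervals that cover counting error only. Mab21l2 had 3 counts there (ratio 1008, 344 to 4889). Cxcl5 and Cdh3 complete the first 12 and are described with their families.

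In the other direction, Irx1, an Iroquois homeobox gene, had 1551 and 1686 normalized counts in the reference libraries and 0 in both Per/Nr1d_KO libraries, at least 525-fold lower. Further genes at 0 in Per/Nr1d_KO were Pcdh9 (at least 485-fold lower), Pgm5 (480), the receptor kinase Grk3 (337), the matrix protease Adamts9 (313), Irx2 (213), 3110039M20Rik (199) and Klf12 (176), each as a lower bound of the fold. Alx4 had 8183 and 8223 against 2.53 and 0, Alx1 6619 and 6858 against 2.53 and 0, and Tfap2b 11000 and 12196 against 3.80 and 0, all 3 of them transcription factors of craniofacial mesenchyme. Gnai1, an inhibitory G protein subunit, had 4110 and 4209 against 1.27 and 0. The remaining pair held all 12 of these genes at levels of the same order as the reference libraries, for example 5352 and 5080 normalized counts of Alx1 and 954 and 1017 of Irx1.

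Interferon-stimulated and antigen presentation genes moved nearly as a block. Interferon signalling drives these genes through complexes that contain IRF9 and bind an interferon-stimulated response element (ISRE) in their promoters. Of 31 tested members 30 were higher in Per/Nr1d_KO and none was lower, beside 11.3% higher over all genes, with a median log2 fold change of 3.82. Members low in the reference libraries, such as Ifi44 and Oas1a, could pass the filter on the mean through Per/Nr1d_KO alone. Mx1 was the member too low to be tested. Ifi44 went from 21.3 and 44.4 normalized counts to 18067 and 17215 (log2 fold change 9.12 ± 0.11), and the 2 reference libraries themselves differed about as 1 to 2. Oas1a, a sensor of double-stranded RNA, had 34.6 and 25.5 against 4235 and 4319 (7.12), Gbp3 84.3 and 112 against 12176 and 11749 (6.95), and Oasl2 195 and 228 against 25809 and 24082 (6.89). The regulators moved as well. Irf7 had 117 and 113 against 8943 and 9034 (log2 fold change 6.28), Irf9 973 and 981 against 8529 and 8675 (3.14) and Stat2 1987 and 1999 against 12765 and 12445 (2.66). The RNA sensors Ifih1 (MDA5) and Ddx58 (RIG-I) were higher by 4.97 and 2.71. Of the class I presentation genes, H2-K1 had 6134 and 5938 against 42736 and 43905 (2.84), B2m 29815 and 36093 against 108357 and 97557 (1.64), and the peptide transporter gene Tap1 a log2 fold change of 3.82. H2-K1 and H2-D1 are near copies, and reads could be split between them. Ifit2, the member that was not called, had 3992 and 4180 against 6599 and 6495 (log2 fold change 0.68). In the remaining pair the summed level of the list was 69819 and 69255, close to the 70215 and 75508 of the reference libraries and far from the 484715 and 474149 of Per/Nr1d_KO.

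A core of the ISRE, GAAA and again GAAA after any 2 bases, was searched in the same promoter windows on both strands after these values were seen. It was held by the windows of 12 of the 26 members that have one (46.2%), beside 3.57% of tested genes, 7.72% of all higher genes and 2.80% of all lower genes. In 5 of the windows read, the first core lay from 20 bases (Oas1a) to 213 bases (Cxcl10) before the start. Stretches of these 5 windows are shown with the core in capitals (TTTC, where it lies on the opposite strand). They lie at chr4:156200845-156200926 (Isg15, minus strand), chr19:34640755-34640843 (Ifit1, plus strand), chr19:34583343-34583446 (Ifit3, plus strand), chr5:120907526-120907575 (Oas1a, minus strand) and chr5:92349063-92349132 (Cxcl10, minus strand, a chemokine gene).
Isg15: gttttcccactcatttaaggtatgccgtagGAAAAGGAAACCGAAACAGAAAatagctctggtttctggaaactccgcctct
Ifit1: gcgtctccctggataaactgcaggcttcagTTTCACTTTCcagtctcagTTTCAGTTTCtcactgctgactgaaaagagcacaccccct
Ifit3: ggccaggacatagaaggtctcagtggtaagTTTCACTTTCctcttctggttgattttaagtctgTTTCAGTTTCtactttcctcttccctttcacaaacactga
Oas1a: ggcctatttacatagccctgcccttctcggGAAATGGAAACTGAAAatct
Cxcl10: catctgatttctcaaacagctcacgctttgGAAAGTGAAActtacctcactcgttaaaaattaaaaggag

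Isg15 holds 3 overlapping copies and Oas1a 2, while Ifit1 and Ifit3 hold 2 separate copies each on the opposite strand. Isg15, a ubiquitin-like modifier, had 480 and 442 normalized counts in the reference libraries against 17697 and 18650 (log2 fold change 5.30), Ifit1 240 and 279 against 18200 and 17667 (6.12), and Ifit3 89.7 and 159 against 6107 and 5817 (5.62). The list also held strongly higher genes whose window lacks the letters, such as Irf7 and Oasl2.

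Chemokine ligand genes were higher in 9 of 12 tested cases, beside 11.3% higher over all genes, with a median log2 fold change of 3.34. Members near 0 in the reference libraries could pass the filter on the mean through Per/Nr1d_KO alone. Cxcl5, a neutrophil attractant, had 18.6 and 26.7 normalized counts in the reference libraries, 35921 and 35750 in Per/Nr1d_KO, and 189 and 153 in the remaining pair (log2 fold change 10.65 ± 0.097, edgeR adjusted p = 3.4e-19). Cxcl1 had 232 and 272 against 49147 and 50610 (7.64), and Ccl20 3.55 and 5.55 against 1517 and 1554 (8.39). Ccl5 and Cxcl10, both interferon-responsive attractants of T cells, were higher by 5.16 and 4.32. Ccl25 was lower (617 and 600 against 270 and 335, -0.99). For Cxcl1 the remaining pair lay between, at 3761 and 3942.

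Of 19 tested NF-kB inflammatory genes, 9 were higher and 2 lower, beside 11.3% higher and 9.35% lower over all genes. The acute-phase genes led, with Steap4 at 7.10 and 12.2 against 3023 and 2907 normalized counts (log2 fold change 8.28), Saa3 at 13.3 and 18.9 against 1521 and 1596 (6.61), Lcn2 at 41.7 and 24.4 against 3288 and 3057 (6.54) and Nos2, the inducible nitric oxide synthase, at 17.8 and 25.5 against 2434 and 2317 (6.80). Il1rl1, the receptor for IL-33, was lower from a high level, 102530 and 104694 against 21776 and 21413 (-2.26), and the inhibitor Nfkbie was lower by -1.09. RNA of the NF-kB subunits Nfkb1 and Rela stayed inside the limit, at 0.28 and 0.21, but Nfkb1 gained a call against the remaining pair. The remaining pair held intermediate levels of the same acute-phase genes, for example 909 and 853 of Steap4 and 768 and 720 of Nos2, below Per/Nr1d_KO in each case. Of the haematopoietic markers, Ptprc, Adgre1, Cd3e, Spi1 and Laptm5 did not exceed 5.07 normalized counts in any library, Itgam had 0.982 to 13.9 and the macrophage gene Csf1r 44.2 to 73.5. The 10 haematopoietic markers summed to 864 and 880 in the reference libraries against 1796 and 1842. Of them 2 were tested, Cd68 (131 and 109 against 276 and 258) and Cd14 (674 and 689 against 1451 and 1524), both higher, though Cd14 was not called against the remaining pair (0.38).

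**Figure D3:**
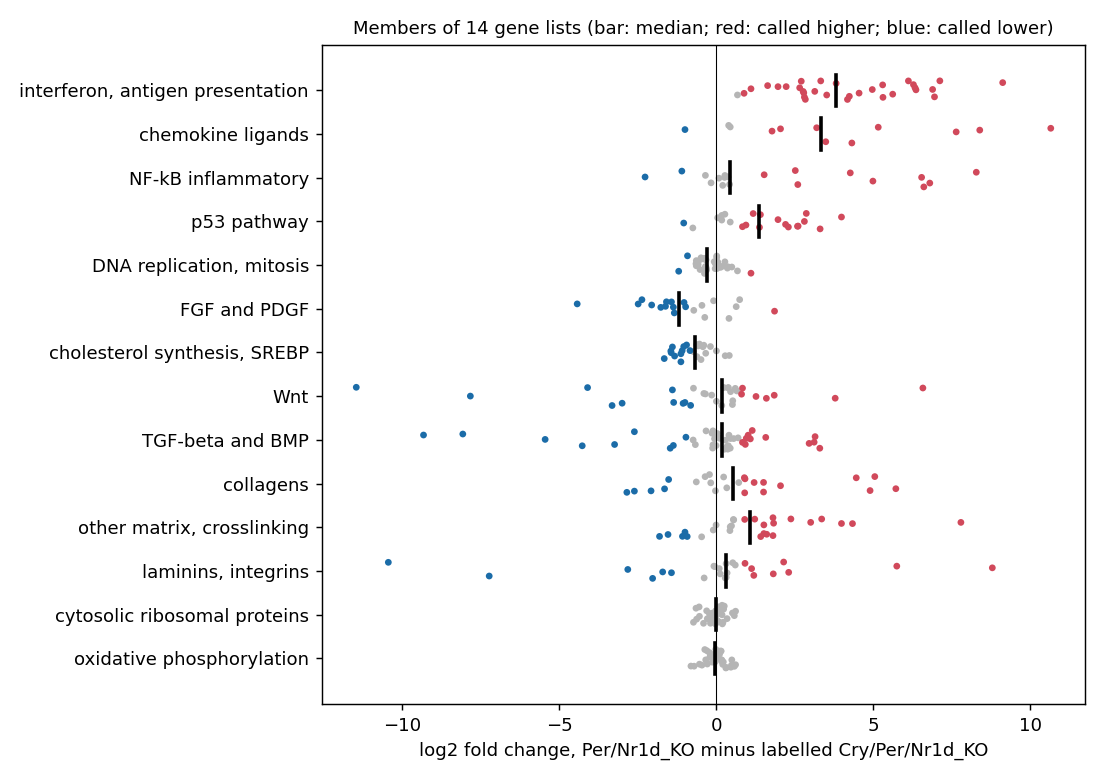
Log2 fold change (Per/Nr1d_KO minus the libraries labelled Cry/Per/Nr1d_KO) of each tested member of 14 gene lists; red points were called higher, blue points lower, grey points were not called, and black bars are list medians. The interferon and antigen presentation list lies wholly to the right of 0 with a median of 3.82, and the ribosomal and oxidative phosphorylation lists hold no called member.

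Genes of the p53 pathway were higher in 14 of 21 cases and lower in 1, with a median log2 fold change of 1.38. Over all genes tested, 11.3% were higher and 9.35% lower. Perp, a desmosomal effector of apoptosis, had 149 and 161 normalized counts against 2378 and 2533 (3.99), Eda2r 536 and 538 against 5175 and 5436 (3.31), Pmaip1 (NOXA) 377 and 401 against 2772 and 2912 (2.87), and Fas 524 and 464 against 3454 and 3517 (2.81). Cdkn1a, the CDK inhibitor p21, had 5348 and 5166 against 24464 and 24154. Gadd45a was lower (-1.03, not called against the remaining pair, -0.60), and Trp53 itself had a log2 fold change of 0.18. Other regulators of the G1 phase also differed. Ccnd1 (cyclin D1) had 27777 and 27621 in the reference libraries against 2441 and 2402 (-3.52 ± 0.046), Ccnd2 (cyclin D2) 28778 and 28809 against 3440 and 3198 (-3.12), Cdk6 288 and 348 against 1186 and 1118 (1.86), and the inhibitor Cdkn1c (p57) 20.4 and 20 against 1191 and 1012 (5.75). E2f2 and Cdkn2d were lower (-1.07 and -0.96), and Cdkn2a differed little (0.14). Of 35 DNA replication and mitosis genes 32 were not called, beside 20.7% called among all genes tested. Rrm2 was higher (1.11), and Ccnb2 and Mki67 were lower (-1.19 and -0.91). Each of these calls was lost under some alternative: that of Rrm2 against the remaining pair (0.53), that of Ccnb2 with chromosome medians subtracted (-0.73), and that of Mki67 under both (-0.75 and -0.81) and with glmTreat (adjusted p = 0.067).

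Growth factor signalling genes of the FGF and PDGF families were mostly lower, 12 of 20 tested with 1 higher and a median of -1.18. The shares over all genes tested were 9.35% lower and 11.3% higher. The receptors Pdgfra (12541 and 12743 against 4140 and 4148, log2 fold change -1.61) and Pdgfrb (17142 and 16251 against 6713 and 6587, -1.33), the ligands Fgf10 (-2.36) and Pdgfc (-1.76) and the ERK-responsive feedback genes Spry4 (463 and 451 against 78.6 and 84.4, -2.48), Spry1 (-1.36) and Dusp6 (-1.42) were among them. So were the ETS factors Etv1 (325 and 390 against 17.7 and 15.8, -4.42), Etv4 (-2.05) and Etv5 (-1.58), which ERK signalling induces. Pdgfrl was the higher member (1.86). Immediate early genes gave a mixed picture, with 7 higher and 3 lower of 19. Fosl2 (8673 and 8380 against 23053 and 23141, 1.44), Ier3 (1.99), Atf3 (1.42) and Ier5 (1.41) were higher, and Klf4 (-1.43), Egr2 (-1.15) and Jun (-0.95) were lower. Egr2 was higher against the remaining pair (1.01), and Fosl2 (0.68), Ier3 (0.55), Dusp6 (-0.41) and Spry1 (0.13) were not called there.

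Cholesterol synthesis genes and their SREBP-controlled partners were lower in 11 of 24 cases and higher in none, with a median of -0.67. The shares over all genes tested were 9.35% lower and 11.3% higher. Sc5d, a late step of sterol synthesis, had 7380 and 7831 normalized counts against 2799 and 2808 (-1.44), and Insig1, which retains SREBP in the endoplasmic reticulum, 4612 and 4588 against 1740 and 1686 (-1.43). In this list the remaining pair lay near Per/Nr1d_KO, with summed levels of 99260 and 102496 against 108981 and 109248, and the reference libraries stood apart at 182978 and 176319. Against the remaining pair, Insig1 had a log2 fold change of -0.55 and was not called, and Sc5d was (-1.18). Targets of the aryl hydrocarbon receptor included Cyp1b1, with 1020 and 1067 normalized counts in the reference libraries, 65345 and 67586 in Per/Nr1d_KO and 2.23 and 0.982 in the remaining pair (5.99 ± 0.055). The receptor gene Ahr (1.69) and that of its repressor Ahrr (153 and 141 against 432 and 549) were higher too, whereas Tiparp (-1.21) and Nqo1 (-1.10) were lower. In the NRF2 and glutathione list 1 gene was higher (Gstm5, 0.89) and 3 were lower, among them Gsta4 with 708 and 749 against 60.8 and 62.3 (-3.56) and Gclc (-0.88). None of 35 cytosolic ribosomal protein genes and none of 36 oxidative phosphorylation genes was called, with medians of 0.00 and -0.02, and 1 of 20 ER stress genes was (Atf3). With the remaining pair as reference, 6 of the 20 ER stress genes were higher and none lower, with a median of 0.30. In that comparison 2 ribosomal protein genes were higher and 1 lower, and 1 oxidative phosphorylation gene was higher and 1 lower. Of 18 glycolysis genes, Pdk1 was higher (0.89) and Eno2 lower (-1.01). Against the remaining pair 6 of the 18 were lower and none higher, with a median of -0.72. The call of Pdk1 was lost with glmTreat, and against the remaining pair (13023 and 12971) it was lower (-1.27), while Insig1 (-0.55), Tiparp (-0.31) and Nqo1 (-0.61) were not called there.

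Genes that record position along the body came next. Fibroblasts keep the Hox code of their site of origin in culture, with late genes of the Hoxa and Hoxd clusters marking distal limb and genital regions. The 7 Hoxa genes (chromosome 6) and 5 Hoxd genes (chromosome 2) that passed the filter on the mean over the 6 libraries were higher in Per/Nr1d_KO. Among them, Hoxa9, Hoxa13, Hoxd8, Hoxd10, Hoxd11 and Hoxd12 had low counts in both other pairs and passed through their level in Per/Nr1d_KO. The counts of higher genes therefore describe the genes that passed. Hoxa10 had 337 and 318 normalized counts against 3208 and 3091 (3.26), Hoxa9 82.6 and 110 against 1044 and 953 (3.39), Hoxa11 218 and 214 against 1856 and 1782 (3.07, with 35% of its exon bases overlapped by Hoxa11os on the other strand) and Hoxa13 42.6 and 48.9 against 579 and 525 (3.59). Hoxd13 had 1122 and 1198 against 13200 and 12547 (3.47), Hoxd12 4.44 and 5.55 against 365 and 340 (6.12), Hoxd11 56.8 and 72.2 against 957 and 791 (3.77) and Hoxd10 123 and 167 against 1340 and 1480 (3.30). The early genes Hoxa3 (34.6 and 34.4 against 109 and 90) and Hoxa5 (1.88) differed less, and Hoxa2 hardly (21.3 and 25.5 against 25.3 and 29.2, too low to be tested). Hoxa3 was lower against the remaining pair (-1.25). Hoxd8 was higher by 1.86, whereas Hoxd4 and Hoxd3, too low to be tested, had 38.2 and 56.6 against 19 and 10.3 and 10.7 and 13.3 against 1.27 and 0. The remaining pair had at most 4.91 normalized counts of any Hoxa gene from Hoxa9 on and of any Hoxd gene.

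Of the Hoxb (chromosome 11) and Hoxc (chromosome 15) genes tested, Hoxb9, Hoxb13 and Hoxc13 were lower, Hoxb2 was higher and Hoxb3 was not called. Hoxb9 had 927 and 1004 normalized counts in the reference libraries and 2.53 and 0.789 in Per/Nr1d_KO, and Hoxb13 365 and 364 against 0 in both, at least 118-fold lower. Hoxb5, Hoxb6, Hoxb7 and Hoxb8 were also at 0 in both Per/Nr1d_KO libraries, against 31.1 to 154 in the reference libraries, but their means over the 6 libraries were too low for the test. Hoxb2 was the Hoxb gene that was higher (76.4 and 63.3 against 243 and 219, 1.70), and Hoxb3 was level (193 and 190 against 199 and 215), with 52.9% of its exon bases overlapped by Hoxb3os. Hoxb3 was called higher against the remaining pair, which had 0 and 3.93 (log2 fold change 6.56). Every Hoxc gene had 22.2 or more normalized counts in each reference library and at most 1.27 in each Per/Nr1d_KO library. Hoxc13, the only Hoxc gene tested, had 394 and 436 against 0 and 0.789. The remaining pair was near 0 for Hoxb and for Hoxc except Hoxc13 (57.9 and 65.8), so Hoxb5 to Hoxb9 and Hoxc4 to Hoxc12 exceeded 5.56 normalized counts in the reference libraries only.

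**Figure D4:**
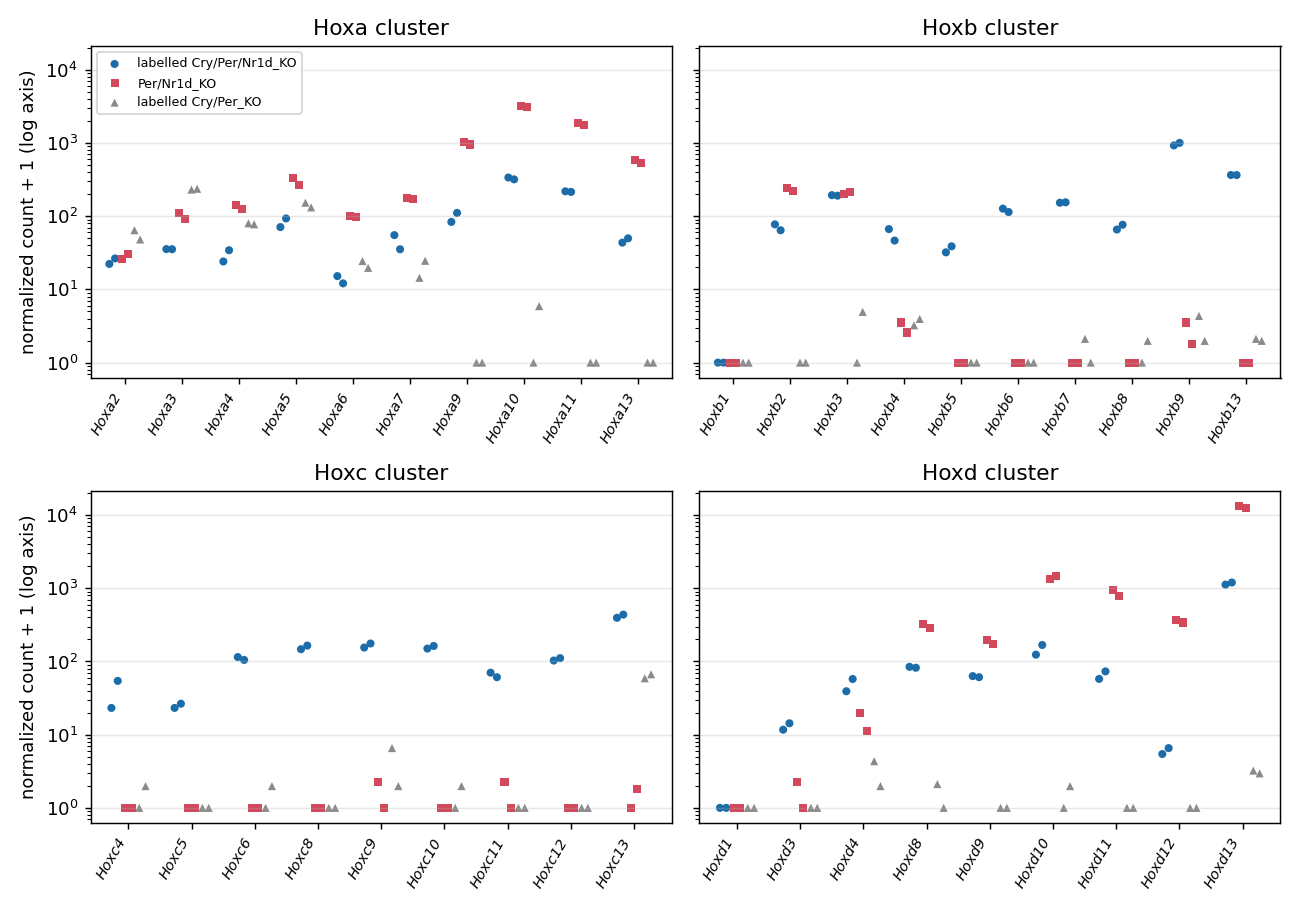
Normalized counts plus 1 (log axis) of genes of the 4 Hox clusters in each library, with symbols as in the legend; a value of 1 stands for 0 counts. Per/Nr1d_KO (red squares) lies highest for Hoxa9 to Hoxa13 and Hoxd8 to Hoxd13, and only the libraries labelled Cry/Per/Nr1d_KO (blue circles) rise above 10 for Hoxb5 to Hoxb13 and Hoxc4 to Hoxc12.

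Of 41 tested limb and positional transcription factor genes, 14 were higher and 17 lower, beside 11.3% higher and 9.35% lower over all genes. Besides Alx1, Alx4, Irx1 and Irx2, the lower genes included Pax3 (4297 and 4553 against 2.53 and 1.58, log2 fold change -11.06), a neural crest and muscle progenitor factor, Shox2 (2815 and 2903 against 8.87 and 1.58, -9.31), Six2 (1876 and 1995 against 5.07 and 2.37, -9.10), and the limb factor Tbx5 (320 and 311 against 0 in both, at least 102-fold lower). The higher genes after Sall1 were Pax9 (158 and 130 against 3053 and 2750, 4.32), Irx3 (29.3 and 46.6 against 658 and 597, 4.07), Foxd1 (411 and 468 against 3861 and 3308, 3.03) and Foxc1 (800 and 892 against 6406 and 5410, 2.80). Pax3, Shox2, Six2, Alx1 and Alx4 had 1726 to 7743 normalized counts in the remaining pair and were lower against it too, whereas Tbx5 was at 0 there and not called. The mesenchymal gene Prrx1 was lower (22337 and 24556 against 10533 and 10013, -1.19), and Twist1 was not called (-0.42). Twist1 was called lower against the remaining pair, which had 5604 and 5862 normalized counts (log2 fold change -1.19).

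Collagen RNAs were higher in 11 of 24 tested genes and lower in 5, beside 11.3% higher and 9.35% lower over all genes. Col3a1, a fibrillar collagen of soft tissue, had 836 and 801 normalized counts in the reference libraries, 42810 and 43797 in Per/Nr1d_KO and 289 and 296 in the remaining pair (log2 fold change 5.72 ± 0.053, edgeR adjusted p = 3.4e-19). Col5a3 (197 and 167 against 6005 and 6094, 5.05), Col18a1 (331 and 325 against 9821 and 9868, 4.90) and Col2a1, the cartilage collagen (2859 and 2427 against 58125 and 58302, 4.46), followed. Col1a1 was higher by 1.51 from an already high level, 229985 and 205471 against 627940 and 616037. The lower genes were Col6a3 (24285 and 23837 against 3292 and 3408, -2.84), Col7a1 (-2.60), the basement membrane chain Col4a5 (-2.07), Col8a1 (-1.64) and Col20a1 (-1.51). Col6a1, which encodes another chain of the collagen of Col6a3, was higher (0.92). The remaining pair had Col6a3 at 4104 and 4158 and Col7a1 at 332 and 294, and against it neither was called (-0.30 and -0.67).

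Among 28 other matrix and crosslinking genes 15 were higher and 5 lower, with a median of 1.07. The shares over all genes tested were 11.3% higher and 9.35% lower. The crosslinking enzymes Loxl2 (11.5 and 11.1 against 2538 and 2545, 7.79) and Lox (22167 and 23039 against 187503 and 177268, 3.01), the fibulins Fbln2 (10359 and 9028 against 198761 and 193817, 4.34) and Fbln1 (3.36) and the proteoglycan Vcan (4191 and 4562 against 69864 and 69049, 3.99) were higher. Postn (24867 and 26388 against 7422 and 7318, -1.80), Fbln5 (-1.53), Spp1 (-1.07) and Loxl3 (-0.99) were lower. Postn was higher than in the remaining pair (2450 and 2332, log2 fold change 1.62), against which Spp1 was not called (-0.04). Of 27 matrix proteases and inhibitors 14 were higher and 6 lower, with Adamts6 (2.44), Adamts2 (2.12) and Adamts4 (1.59, not called against the remaining pair, 0.17) at the upper end. At the lower end, after Adamts9, stood the collagenolytic cathepsin Ctsk (2134 and 2033 against 25.3 and 30.8, -6.18), Mmp16 (-1.65) and Timp3 (103945 and 107700 against 34847 and 34046, -1.62).

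Of 25 tested laminin and integrin genes 8 were higher, 6 lower and 11 not called, and of 8 tested cadherin and protocadherin genes 2 were higher, 5 lower and 1 not called. Over all genes tested, 11.3% were higher and 9.35% lower. The higher cadherin genes, Cdh3 and Cdh10, did not exceed 42.3 normalized counts in any library of the other pairs. They passed the filter on the mean through their level in Per/Nr1d_KO. Lama1 was higher (82.6 and 75.5 against 4299 and 4274, 5.75) and Lama5 as well (1.82), while Lama4 was near absent (4916 and 4853 against 5.07 and 2.37, -10.43) and Lama2 lower (-2.02), although it was higher against the remaining pair (3.76, from 34.5 and 50.1). Of the integrins, Itgb6 had 1.78 and 0 against 469 and 512, Itga11 1147 and 1138 against 5825 and 5498 (2.31) and Itgb3 194 and 199 against 866 and 879 (2.15), and Itga8 had 563 and 634 against 3.80 and 3.95 (-7.22) and Itga6 5025 and 5221 against 717 and 745 (-2.81). P-cadherin (Cdh3) rose from 22.2 and 24.4 normalized counts to 19967 and 18985 (9.71 ± 0.09) and Cdh10 from 7.10 and 1.11 to 469 and 468 (6.68). The mesenchymal Cdh11 fell from 15165 and 16332 to 564 and 522 (-4.87), Cdh2 (N-cadherin) was lower by -1.38, Pcdh19 by -5.41 and Pcdh18 by -1.46. Of 20 contractile genes 3 were higher and 5 lower, whereas 5 were higher and 2 lower against the remaining pair. Calponin 1 (Cnn1) had 18.6 and 13.3 against 3633 and 3687 (7.80), Ccn1 was higher by 1.23 and Smtn by 1.05, but the smooth muscle genes Actg2 (746 and 740 against 103 and 82.1, -3.04), Tagln (57462 and 52407 against 7888 and 8432, -2.75), Myl9 (-1.71) and Cnn2 (-0.91) were lower. Actg2 was higher than in the remaining pair (23.4 and 22.6, log2 fold change 1.97), and there Myl9 and Cnn2 were not called (-0.35 and -0.60). For Tagln, 67.9% of exon bases are overlapped by genes of the other strand.

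**Figure D5:**
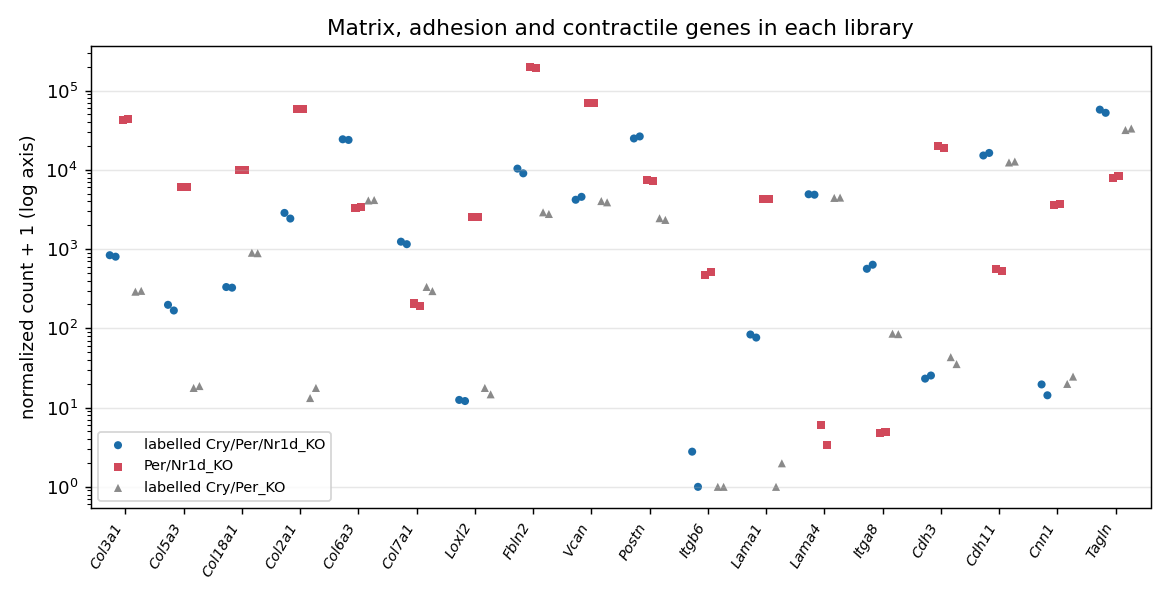
Normalized counts plus 1 (log axis) of 18 matrix, adhesion and contractile genes in each library, with symbols as in the legend. Per/Nr1d_KO (red squares) lies above both other pairs from Col3a1 to Col2a1 and for Loxl2, Fbln2, Vcan, Itgb6, Lama1, Cdh3 and Cnn1, and below both for Lama4, Itga8, Cdh11 and Tagln.

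Of 31 tested Wnt genes 7 were higher and 10 lower, beside 11.3% higher and 9.35% lower over all genes. Against the remaining pair 10 were higher and 6 lower, and some genes called lower against the reference libraries were called higher there. Wnt5a, a non-canonical ligand, had 7199 and 7149 normalized counts against 5.07 and 0.789 (-11.45), and the inhibitor Sfrp1 had 8919 and 9341 against 36.8 and 42.6 (-7.82), whereas its relative Sfrp2 had 279 and 283 against 28723 and 25088 (6.58). Rnf43, a ubiquitin ligase that removes Wnt receptors, was higher (3.79), Dkk3 (1.85) and Wnt10b (1275 and 1108 against 3484 and 3764) were higher, and the transcription factor Lef1 (-4.09) and Nkd2 (-3.31, not called against the remaining pair, -0.30) were lower. Of 42 TGF-beta and BMP genes 11 were higher and 9 lower. The BMP antagonists Grem1 (28938 and 29431 against 129 and 95.5, -8.06) and Chrdl1 (2389 and 2630 against 50.7 and 62.3, -5.44) were lower, as was Bmp3 (671 and 721 against 1.27 and 0.789). The co-receptor Eng (3.30), the ligands Bmp6 (3.15) and Tgfb2 (2.96) and the TGF-beta target Tgfbi (3.12) were higher. The remaining pair held Grem1 at 26353 and 25944, near the reference libraries, but Sfrp1 at 131 and 120, against which Per/Nr1d_KO was lower by a log2 fold change of -1.63.

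In the Hedgehog list Boc (371 and 379 against 2671 and 2796, 2.87), Ptch1 (2.34), Gli2 (2.19) and Gas1 (1.11) were higher, and Hhip (291 and 359 against 0 and 1.58), Gli1 (-1.53) and Cdon (-1.35) were lower, so the usual targets Ptch1 and Gli1 moved in opposite directions. Of 16 IGF genes Pappa, the protease that frees IGF from its binding proteins, had 180 and 162 against 12405 and 12289 (6.16). Igfbp2 had 7385 and 6713 against 29.2 in both (-7.91), Igfbp6 592 and 554 against 17.7 and 26.8 (-4.62), and Igf2 515 and 536 against 35.5 and 28.4 (-4.07, with 62.8% of its exon bases shared with another gene of its strand). Igfbp4 was higher (1.08), Igfbp3 was lower (-1.08), and Irs2 stood at the limit (1980 and 1946 against 3552 and 3328, 0.81), its call lost without Cry/Per/Nr1d_KO replicate 2 (0.80), without Per/Nr1d_KO replicate 1 (0.76), from the 4 libraries alone (0.80), with DESeq2 or its size factors (0.80), with chromosome medians subtracted (0.71) and with glmTreat. With the remaining pair as reference, Igfbp3 (27.8 and 24.5) and Igf2 (2.23 and 6.87) were higher (4.37 and 2.70), and Igfbp4 and Gli1 were not called (0.71 and -0.05). Of 49 axon guidance genes, which also steer fibroblast migration, 13 were higher and 10 lower, beside 11.3% and 9.35% over all genes. Sema4f (5.04), Ntn1 (797 and 787 against 13202 and 12496, 4.02), Sema3e (2.51) and Ephb6 (1.99, against 0.34 with the remaining pair as reference, not called) led upwards, and Epha7 (3 counts in all in Per/Nr1d_KO, ratio 76.8, 25.9 to 375), Sema3a (21316 and 23353 against 560 and 607, -5.25), Plxnc1 (-4.27) and Sema7a (-4.13) downwards. Imprinted genes were called in 7 of 17 cases. The call of Airn was lost without Cry/Per/Nr1d_KO replicate 2 and without Per/Nr1d_KO replicate 2, and its log2 fold change ranged from 0.65 to 0.96 over the libraries left out. Cdkn1c and Airn were higher (5.75 and 0.83), and Zdbf2 (1377 and 1432 against 1.27 and 1.58), the long noncoding RNA H19 (728 and 727 against 5.07 and 3.95), Slc38a4 (-5.59), Igf2 (-4.07) and Plagl1 (-2.70) were lower. Zdbf2, H19 and Igf2 were also low in the remaining pair (0 in both, 5.56 and 1.96, 2.23 and 6.87).

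The libraries expressed the fibroblast markers fixed for the check except Thy1, which did not exceed 6.21 normalized counts, and of the 11 tested markers 4 were higher and 5 lower, with Fn1 and Col1a2 higher by 0.91 each (Col1a2 not called against the remaining pair, 0.56) and S100a4 lower (-2.83). Epithelial keratins were near 0 in all libraries apart from Krt19, which had 68.4 and 46.6 against 668 and 675, and of the other epithelial markers Cdh1 had 7.99 and 27.8 against 100 and 110, while Esrp1 had 140 and 153 against 0 and 0.789. The 10 epithelial markers summed to 249 and 265 in the reference libraries and 814 and 830 in Per/Nr1d_KO. Endothelial Tie1 and Cldn5 were at 0 in every library, and of the 8 endothelial markers Egfl7 was tested and lower (-1.06). No skeletal muscle marker passed the filter. Neural Snap25 was at 0 in every library, Sox10 did not exceed 2.23, and Map2, Nes and Tubb3, which fibroblasts also express, were lower (-3.47, -1.59 and -1.48). Tubb3 was higher against the remaining pair (0.90) and Nes not called (-0.70). Of the 4 tested cartilage and bone markers Sox9 and Acan were lower (-1.54 and -1.78). Col2a1 was higher (4.46), and the other was not called (0.23). Against the remaining pair 3 of the 4 were higher and 1 lower, with Acan (0 and 0.982 there) among the higher. Of the fat genes Fabp4 was higher with Pparg (3.08) while Adipoq, Plin1 and Cidec stayed at or under 6.87. Too low to be tested, Cebpa had 47.9 and 35.5 against 185 and 161, and Lpl went the other way (41.7 and 36.6 against 0 and 1.58). Xist, the RNA of the silenced X chromosome, had 46076 and 52290 normalized counts in the reference libraries, 134902 and 119755 in the remaining pair and 41.8 and 14.2 in Per/Nr1d_KO, and the Y-linked genes Ddx3y, Eif2s3y, Kdm5d and Uty were at 0 in all 6 libraries. The X-linked genes Kdm5c, Kdm6a, Ddx3x and Eif2s3x, which escape silencing, were not called, and the median over 390 tested X-linked genes was -0.03.

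Differences were spread over all chromosomes but not evenly. The median log2 fold change was 0.52 on chromosome 14, where 31.5% of 378 genes were called, 102 of them higher, and -0.46 on chromosome 9, where 136 of 657 genes were lower. On the mitochondrial genome 6 of 10 genes were lower, with a median of -0.86. All other chromosomes had medians between -0.21 and 0.28. Copy number was not measured, and its part in these shifts was not tested. With the median of each gene's chromosome subtracted, 2329 genes were called, 2135 of them among the 2468 and in the same direction.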

How the data were processed

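Poly-A RNA of 3 fibroblast lines, 2 preparations each, was sequenced as stranded single-end libraries. Per the submitters' processing notes, the authors used STAR, the mm10 build and featureCounts. The counts they deposited are raw whole numbers for each Entrez Gene ID. Settings for strand and multiply mapped reads are not given in the sources used here. The deposited comparison tables of the authors (DESeq2 1.22.2: mean, log2 fold change, p-value) were not used. Symbols came from RefSeq for 25275 of 27179 genes (GRCm38.p6) and exon overlaps from GENCODE vM21.

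Counts of all 6 libraries were fitted in edgeR 4.0.16 (R 4.3.3) with TMM factors and 3 groups, and Per/Nr1d_KO was contrasted with the libraries deposited under the name Cry/Per_KO, whose genotype label is Cry/Per/Nr1d_KO. Genes that averaged 100 or more normalized counts were tested with the quasi-likelihood test, p-values were adjusted by Benjamini-Hochberg over 11934 genes, and genes with adjusted p below 0.05 and a log2 fold change beyond 0.807 were called. This filter can pass a gene through a single high group. Folds against 0 counts used a floor of 3 counts per library. On simulated data with 200 changed genes among 11929, 196 were recovered with 0 false calls. Far more genes were called in the data (2468), so the simulation does not give the error rate of these calls. The members and gene lists were chosen with earlier results of these data known. The rule for named genes took all members of the 9 clock lists and of the Hox, sex-linked and marker lists (given in part as ranges and counts), the 12 genes with the largest fitted change in each direction, and from every other list up to 4 called genes per direction. Further members and the ISRE search were chosen after values were seen. Alternatives were DESeq2 1.42.0 and its size factors, other filters and fold limits, glmTreat, the 4 libraries alone, a replicate block, each library left out, subtraction of chromosome medians, and the other pair as reference. Some members of the lists are not reported here by name, but they are included in the counts and medians.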

Additional observations from a re-analysis of the deposited data

How the results depend on the processing

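The 2468 calls became 2464 with the size factors of DESeq2 in edgeR, 2464 with DESeq2, 1759 with DESeq2 at adjusted p below 1e-22, 2032 with glmTreat, 2463 from the 4 libraries alone, and 2451 to 2519 with each library left out. Calls depended on the filter and on the limit on the fold. Without a filter 4576 genes were called, 2242 higher and 2334 lower, since 20375 genes entered the test, and the share of calls that were higher fell from 54.8% to 49.0%. With a mean of 10 or more there were 3912 calls, 1937 of them lower, and without a limit on the fold 9042, with 4618 higher and 4424 lower. A replicate block left 2468 calls, 2464 of them shared, and changed no call of a named gene. Deviations of same-numbered preparations from their group means correlated at -0.0843, so the numbers do not pair the samples. With the short E-box CANNTG in place of CACGTG, the promoter shares were 71.8% of higher and 70.8% of lower genes, beside 65.8% of tested genes.

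With the remaining pair as reference, 3457 genes were called, 1830 of the 2468 in the same direction and 66 in the opposite one. The log2 fold change there had the opposite sign for Nr1d1 (-0.87), Nr1d2 (-0.53), Arntl2 (-0.27), Rora (-0.17), Klf10 (-0.20), Pfkfb3 (0.47), Tspan4 (0.08), Fbxl21 (-0.95), Csnk1d (-0.28), Csnk1e (0.35), Hdac3 (-0.39), Insig2 (-0.23), Bclaf1 (0.34), Rela (-0.07), Spry1 (0.13), Egr2 (1.01), Pdk1 (-1.27), Hoxa3 (-1.25), Postn (1.62), Lama2 (3.76), Actg2 (1.97), Igf2 (2.70), Igfbp3 (4.37), Zdbf2 (3.66), H19 (0.25), Tubb3 (0.90), Acan (7.08) and Ddx3x (0.18). With chromosome medians subtracted, the sign changed for Nr1d2 (-0.40), Leo1 (0.13) and Rela (-0.01), and with a library left out that of Csnk1e did (-0.05 to 0.01). The cause was not tested. Of the 288 named genes tested, 48 lost their call with DESeq2 at adjusted p below 1e-22, 12 with glmTreat, 11 with chromosome medians subtracted and 29 with the remaining pair as reference, where 7 gained one. These 7 were Cry1, Per1, Slc16a1, Csnk1a1, Nfkb1, Hoxb3 and Twist1. Those lost with DESeq2 at that threshold were Npas2 (adjusted p = 9.9e-21), Rora (1.5e-08), Usp2, Fbxl21, Mmp9, Sall1, Vnn1, 5730409E04Rik, Kcnk5, Nmral1, Jph2, Pparg, Irx1, Pcdh9, Pgm5, Grk3, Adamts9, Irx2, 3110039M20Rik, Klf12, Gnai1, Ccl25, Cd68, E2f2, Cdkn2d, Spry1, Egr2, Ahrr, Eno2, Hoxa3, Hoxa5, Hoxd8, Hoxb13, Hoxb2, Hoxc13, Tbx5, Col20a1, Itgb6, Bmp3, Gas1, Hhip, Gli1, Igfbp3, Irs2, Epha7, Airn, Egfl7 and Acan. Those lost with glmTreat were Tef, Wee1, Zfp367, Ccl25, Cdkn2d, Mki67, Gstm5, Gclc, Pdk1, Irs2, Airn and Col1a2. Those lost with chromosome medians subtracted were Wee1, Noct, Elovl5, Cdkn2d, Ccnb2, Mki67, Jun, Gstm5, Gclc, Irs2 and Fn1. Those lost against the remaining pair were Arntl (0.17), Nfil3 (0.45), Wee1 (-0.63), Noct (0.60), Cd14, Gadd45a, Rrm2, Mki67, Dusp6, Fosl2, Ier3, Insig1, Tiparp, Nqo1, Hoxb9, Hoxb13, Tbx5, Col6a3, Col7a1, Spp1, Adamts4, Myl9, Cnn2, Nkd2, Gli1, Igfbp4, Ephb6, Col1a2 and Nes. Medians of 44 gene lists were compared under the settings that keep the reference pair and change a fitted value. Of these 484 medians, 435 moved by less than the spread between libraries and none by more than 0.38. The sign changed for 12, all of lists with a median between -0.02 and 0.02. Medians against the remaining pair are not among the 484. A pair of preparations per line limits all errors given, and genes near 0 counts have fitted values that depend on the prior count.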
